A study of Mus musculus with 6 samples.

Results

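The slit diaphragm is the cell junction that spans the gap between the foot processes of podocytes, the epithelial cells that cover the outer face of the glomerular capillaries. It was described here by 9 genes taken from a list of its known parts, all of which matched a row of the 27179 rows in the table by NCBI Gene identifier. They were grouped by role: 3 adhesion receptors of the immunoglobulin superfamily (Nphs1, Kirrel, Kirrel2), 3 scaffolds (Cd2ap, Magi2, Tjp1) and 3 signalling genes (Fyn, Nck1, Nck2). All 9 had a mean of at least 10 normalised counts and entered the test, as did 13946 of all rows.

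RNA of whole glomeruli was sequenced from 6 male mice on a mixed C57BL/6 background, 9 weeks old and described as having mild proteinuria. The 3 mice called KO carried Parva-fl/fl together with hNPHS2Cre, a Cre recombinase expressed in podocytes. The 3 mice called WT carried Parva-fl/fl without Cre, so both groups share the floxed gene, and an effect of the Cre transgene cannot be told apart from that of the deletion. Glomeruli were collected with magnetic beads and hold podocytes, endothelial cells and mesangial cells together. The libraries also held transcripts of tubule markers.

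Nephrin, the product of Nphs1, and the Neph proteins encoded by Kirrel and Kirrel2 reach across the slit from both sides and bind each other through their extracellular domains. Their cytoplasmic tails are held by scaffolds that link them to actin: CD2AP binds the nephrin tail, MAGI-2 is a membrane-associated scaffold with several PDZ domains, and ZO-1, the product of Tjp1, binds the Neph1 tail. The kinase Fyn phosphorylates tyrosines of the nephrin tail, and the SH2 domains of Nck1 and Nck2 then bind these phosphotyrosines and recruit actin regulators. Loss of nephrin causes congenital nephrotic syndrome.

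Libraries held 11886828 to 20552984 whole reads, recovered from the deposited values. In the 3 WT libraries and KO-1, 17.4% to 32.4% of the reads lay in 10 genes that were each far higher in 1 library than in any other (at least 30 times the next), against 0.241% and 0.239% in KO-2 and KO-3. None of the 9 slit diaphragm genes is among them. Parva, the floxed gene, stood between 6585 and 7890 normalised counts in WT and between 1942 and 2338 in KO. Its log2 fold change was -1.74 (SE 0.12; adjusted p in limma 0.0106), which no longer passed without WT-2 (adjusted p in limma 0.0793) or without WT-3 (0.0533). Its remaining KO level was 29.9% of the WT mean in libraries that also contain cells without Cre.

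All 3 scaffolds and 2 of the 3 signalling genes were lower in KO glomeruli, and no receptor passed the test. Whether the roles differ in their change was not tested. Nphs1, Kirrel and Nck2, which did not pass, had log2 fold changes of -0.32, -0.35 and -0.36, near the -0.39 of Cd2ap. Their SE was larger (0.20, 0.15 and 0.12 against 0.09). Of the 9 genes, 5 fell (Cd2ap, Magi2, Tjp1, Fyn and Nck1), 0 rose and 4 did not pass (Nphs1, Kirrel, Kirrel2 and Nck2), in limma with p-values adjusted over all genes tested and a threshold of 0.05. Among all genes tested, 22.1% were called, 8.58% lower and 13.5% higher. At an unadjusted p under 0.05 stood 7 of the 9, all lower, and 39.9% of all genes. The KO mean was below the WT mean in 8 of the 9 and in 50.3% of all genes. The median log2 fold change of the 9 was -0.39, against -0.0064 over all genes tested. In 6 of the 9 every KO library lay below every WT library, which was the case for 21.9% of all genes tested; the reverse held for 0 of the 9 and for 23.2% of all genes. In a bulk library, fewer podocytes, a larger share of RNA from other cells and less of a transcript per podocyte cannot be told apart. Of 20 proximal tubule markers, 18 were higher in KO at a median log2 of 1.52, and their part was not tested. The count of 5 depended on single libraries. In limma it was 0 with WT-2, WT-3, KO-2 or KO-3 left out (5, 5, 6 and 5 of the 9 at an unadjusted p under 0.05). It was 6 with WT-1 left out and 4 with KO-1 left out. Of all genes, limma called 1, 0, 4 and 3 in either direction without WT-2, WT-3, KO-2 and KO-3, against 3085 with all libraries. Lower were 1695 genes without WT-1 and 781 without KO-1, against 1196. The changes in the count are therefore not particular to the 9 genes. The count of 5 was also 0 in limma without the variance trend, with a replicate block, with the mean of the proximal tubule markers in the model and with libraries scaled to podocyte markers (6, 5, 0 and 1 of the 9 at an unadjusted p under 0.05, the last of them higher). Of all genes, 1, 0, 0 and 4241 were called in these fits, 37 of the last lower. The tubule marker mean (log2) was 11.56 to 12.75 in WT and 13.12 to 13.66 in KO. Without overlap, that model can hardly tell it from genotype. By edgeR's quasi-likelihood test 4 of the 9 fell (8.25% of all genes), and by DESeq2 6 fell (10.6% of all genes).

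**Figure D1:**
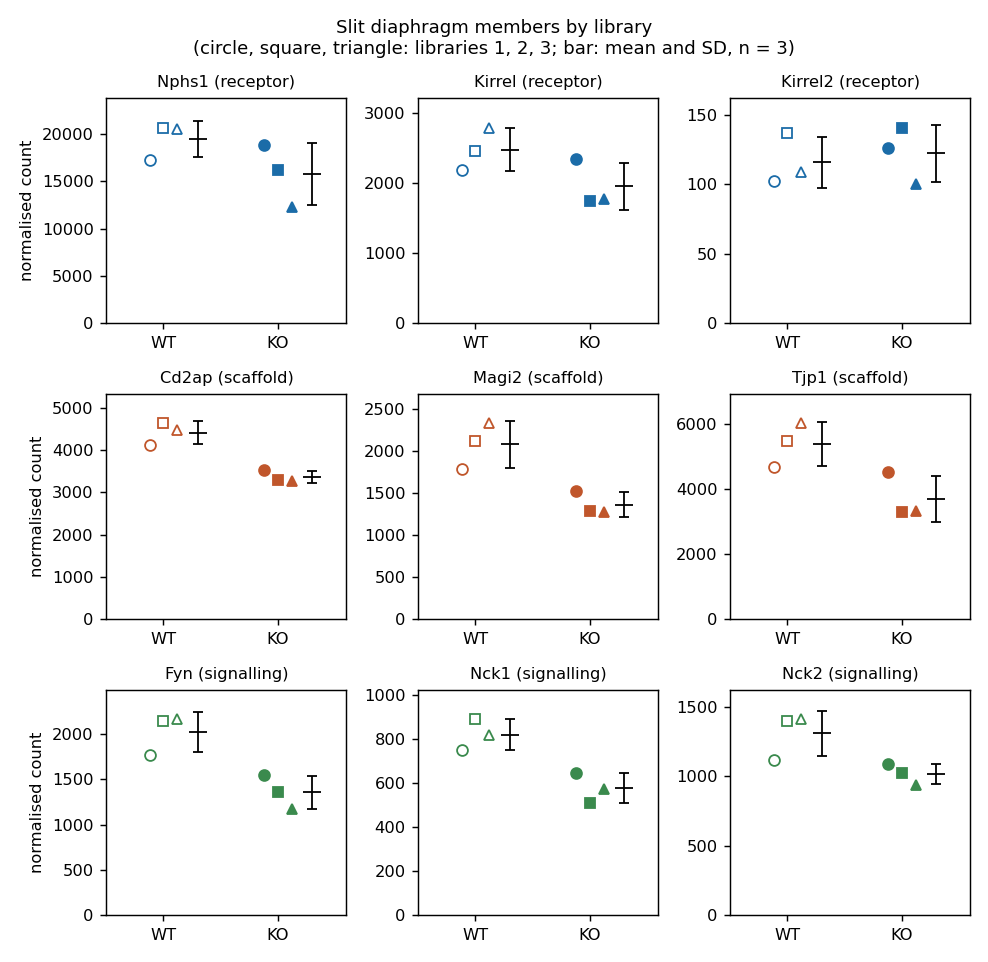
Normalised counts of the 9 slit diaphragm genes in each library, WT open and KO filled, with the mean and SD of 3 libraries beside the points; each vertical axis starts at 0. KO and WT points are separate in the panels of Cd2ap, Magi2, Tjp1, Fyn, Nck1 and Nck2 and overlap in those of Nphs1, Kirrel and Kirrel2.

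Nephrin itself showed no difference beyond the spread of the libraries. Nphs1 (NCBI Gene 54631; GRCm38.p6 chromosome 7, 30458207 to 30488623, plus strand) had 17289, 20698 and 20543 normalised counts in WT-1 to WT-3 and 18869, 16220 and 12338 in KO-1 to KO-3. KO-1 lay above WT-1, and KO-3 was lowest of all. The mean was 19510 ± 1925 in WT and 15809 ± 3285 in KO (SD, n = 3). This is -0.32 on the log2 scale, with a 95% interval from -0.79 to 0.15 (limma adjusted p = 0.265; two-sided exact permutation p = 0.2). The interval covers both no change and a decrease larger than the one found for any scaffold. Exons of Nphs1 share 597 bases with the antisense gene Nphs1os and 183 with the antisense pseudogene Rps12-ps4, and since the strand setting of the counting is not given in the sources used here, reads there cannot be assigned.

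Kirrel, which encodes Neph1, was lower on average with 1 overlapping library. Its normalised counts (NCBI Gene 170643; chromosome 3, 87078593 to 87174777, minus strand) were 2186, 2446 and 2787 in WT-1 to WT-3 and 2341, 1743 and 1768 in KO-1 to KO-3. KO-1 stood between WT-1 and WT-2, and the other KO libraries lay below all WT libraries. The log2 fold change of -0.35 (SE 0.15) did not pass in limma (adjusted p = 0.122).

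Kirrel2, which encodes Neph3, was the weakest of the 9 and differed least. The gene (NCBI Gene 243911; chromosome 7, 30447766 to 30457515, minus strand) lies beside Nphs1 on the opposite strand, and their transcription points away from each other. It had 102, 137 and 109 normalised counts in WT-1 to WT-3 and 126, 141 and 99.8 in KO-1 to KO-3, from 88 to 142 whole reads per library. The highest and the lowest of these values were both KO libraries. The log2 fold change was 0.07 with a 95% interval from -0.37 to 0.52 (limma adjusted p = 0.800). The ratio of Nphs1 to Kirrel2 within a library, which does not depend on scaling, was 169, 152 and 189 in WT and 150.0, 115 and 124 in KO, so that each KO ratio was below each WT ratio. The gap between KO-1 and WT-2 was small beside the SD of 18.8 in WT, and the share of gene pairs whose ratio separates in this way was not counted.

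All 3 scaffolds fell, to between 65.6% and 76.3% of their WT means. Magi2 (NCBI Gene 50791; chromosome 5, 19219387 to 20704792, plus strand) had the largest decrease of the 9 genes. It had 1785, 2126 and 2332 normalised counts in WT-1 to WT-3 and 1531, 1283 and 1280 in KO-1 to KO-3. The groups did not overlap, and the log2 fold change was -0.60 (SE 0.13, limma adjusted p = 0.0289). Another annotated transcript, Gm29254, shares 203 exon bases with Magi2 on the same strand.

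Tjp1 (NCBI Gene 21872; chromosome 7, 65296165 to 65527850, minus strand) had 4678, 5466 and 6022 normalised counts in WT-1 to WT-3 and 4523, 3283 and 3317 in KO-1 to KO-3. The KO-1 value came close to WT-1, while KO-2 and KO-3 were well below. Its log2 fold change was -0.55 (SE 0.16), and its adjusted p of 0.0489 in limma was the closest of the 5 to the threshold and became 0.0563 in edgeR. ZO-1 is a general tight junction protein, also made by endothelial and tubule cells.

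Cd2ap (NCBI Gene 12488; chromosome 17, 42748887 to 42876707, minus strand) showed the smallest decrease among the 5 and the smallest standard error. Its normalised counts were 4116, 4638 and 4492 in WT-1 to WT-3 and 3523, 3296 and 3283 in KO-1 to KO-3. The WT mean was 4415 ± 269 and the KO mean 3367 ± 135 (SD, n = 3), lower by a log2 difference of -0.39 (SE 0.09; adjusted p in limma 0.0321). Without KO-1 its adjusted p in limma was 0.0508, at a log2 fold change of -0.42.

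**Figure D2:**
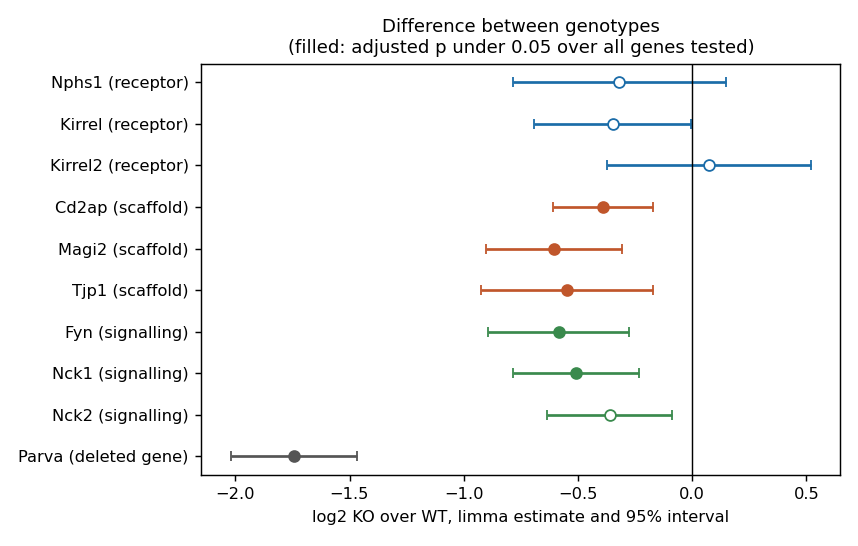
Log2 fold change of KO over WT for the 9 genes and Parva with 95% intervals from limma; filled points have an adjusted p under 0.05. The scaffolds, Fyn and Nck1 lie between -0.60 and -0.39, and the intervals of the 3 receptors overlap these values.

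The kinase gene Fyn and the adaptor gene Nck1 fell to a similar extent. Fyn (NCBI Gene 14360; chromosome 10, 39369743 to 39565381, plus strand) had 1775, 2151 and 2166 normalised counts in WT-1 to WT-3 and 1544, 1357 and 1171 in KO-1 to KO-3, without overlap. Its log2 fold change was -0.58 (SE 0.13, limma adjusted p = 0.0304). Within a library there were 9.74, 9.62 and 9.48 Nphs1 counts per Fyn count in WT and 12.2, 11.96 and 10.5 in KO, again without overlap. How often the ratio of other gene pairs separates in this way was not counted, so this is a description. The ratio of Nphs1 to Magi2 did overlap, at 9.69, 9.74 and 8.81 in WT and 12.3, 12.6 and 9.64 in KO, as did those of Nphs1 to Kirrel, Cd2ap and Nck2.

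Nck1 and Nck2 encode closely related adaptors with overlapping roles in podocytes. Nck1 (NCBI Gene 17973; chromosome 9, 100494302 to 100546134, minus strand) had 752, 891 and 819 normalised counts in WT-1 to WT-3 and 648, 510.0 and 575 in KO-1 to KO-3, which is -0.51 in log2 (SE 0.12; adjusted p in limma 0.0304). Nck2 (NCBI Gene 17974; chromosome 1, 43445483 to 43570518, plus strand) had 1121, 1397 and 1412 in WT and 1086, 1022 and 940.1 in KO. Both genes had every KO library below every WT library, although for Nck2 the distance between KO-1 and WT-1 was small. The log2 fold change of Nck2 was -0.36 with a 95% interval from -0.64 to -0.09, and it did not pass over all genes (limma adjusted p = 0.0630). It passed in DESeq2 (adjusted p = 0.0494) and in limma without WT-1 (adjusted p = 0.0126), and missed the threshold in edgeR (adjusted p = 0.0604). The ratio of Nck2 to Nck1 counts was 1.49, 1.57 and 1.72 in WT and 1.68, 2.004 and 1.64 in KO, with overlap, so a shift from one adaptor to the other was not seen beyond the spread.

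For the 5 genes that fell and for Nck2, the exact permutation test gave p = 0.1, the smallest that 3 against 3 libraries allow. Promoter windows of 3 of these genes, the 250 bases before a RefSeq start (GRCm38.p6), are shown. In these genes every KO library lay below every WT library, although Nck2 did not pass in limma. The windows hold no exon annotated in GENCODE M21. Windows at other starts of Magi2 and Nck1 also hold no such exon and are not shown. RefSeq exons were not checked, and the RefSeq span of Nck2 begins at 43445483, before its window. The windows shown are Tjp1 (chr7:65371245-65371494, minus strand), Nck1 (chr9:100546135-100546384, minus strand) and Nck2 (chr1:43445501-43445750, plus strand), the first and the last at starts inside the gene's annotated span, printed 5′ to 3′ with motif matches on either strand in capitals.
Tjp1: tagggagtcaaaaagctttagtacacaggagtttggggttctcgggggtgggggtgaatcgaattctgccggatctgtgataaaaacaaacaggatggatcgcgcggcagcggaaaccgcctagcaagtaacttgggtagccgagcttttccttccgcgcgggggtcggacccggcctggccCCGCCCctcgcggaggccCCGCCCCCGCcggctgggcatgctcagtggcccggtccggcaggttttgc
Nck1: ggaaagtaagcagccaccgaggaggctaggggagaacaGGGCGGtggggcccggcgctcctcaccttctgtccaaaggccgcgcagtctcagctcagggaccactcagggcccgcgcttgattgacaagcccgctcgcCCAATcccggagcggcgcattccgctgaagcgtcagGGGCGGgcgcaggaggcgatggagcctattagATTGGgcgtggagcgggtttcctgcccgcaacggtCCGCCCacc
Nck2: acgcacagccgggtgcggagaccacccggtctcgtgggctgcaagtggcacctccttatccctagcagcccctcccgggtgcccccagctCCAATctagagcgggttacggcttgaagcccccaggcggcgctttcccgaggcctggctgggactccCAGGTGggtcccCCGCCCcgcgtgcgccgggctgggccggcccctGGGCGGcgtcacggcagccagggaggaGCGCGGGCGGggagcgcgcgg
Of 4 motifs searched, the GC box GGGCGG was found 2 times before Tjp1, 3 times before Nck1 and 3 times before Nck2, and 32.7% of the 32851 windows in the RefSeq table of promoters hold it. The consensus GCGNGGGCG shared by EGR factors and WT1 was found 1 time each before Tjp1 and Nck2, overlapping a GC box in both, and in 4.70% of all windows. CCAAT was found 2 times before Nck1 and 1 time before Nck2 (33.8% of all windows), and the E-box CANCTG 1 time before Nck2 (44.8%). Of the windows not shown, that of Magi2 held 1 GC box and 1 E-box and that of Nck1 held 2 CCAAT boxes. Neither held the consensus of EGR factors and WT1. In the windows shown, 63.2% to 75.2% of the bases are G or C, and the shares over all windows are not matched for this. These are matches of letters and not measured sites.

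Levels of the 9 genes were compared per kilobase of merged GENCODE M21 exons. This length counts the exons of all annotated transcripts, and so lowers the value of a gene with rarely used exons. In WT, Nphs1 led at 2947 ± 291 normalised counts per kb (SD, n = 3), followed by Tjp1 at 690 ± 86.5 and Fyn at 465 ± 50.8. Kirrel (331 ± 40.4), Nck2 (294 ± 36.8) and Cd2ap (278 ± 17.0) came next, and their ranges of mean ± SD overlapped. The ranges of Magi2 (183 ± 24.3) and Nck1 (171 ± 14.5) overlapped as well, and Kirrel2 was last at 29.4 ± 4.65. These overlaps do not compare the genes within a library. Receptors thus took both ends of the range, while Kirrel, the scaffolds and the signalling genes lay between. In KO, Nphs1 stood at 2388 ± 496 and Kirrel2 at 31.0 ± 5.26, and Magi2 and Nck1 were nearly equal at 120 ± 12.7 and 121 ± 14.4.

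**Figure D3:**
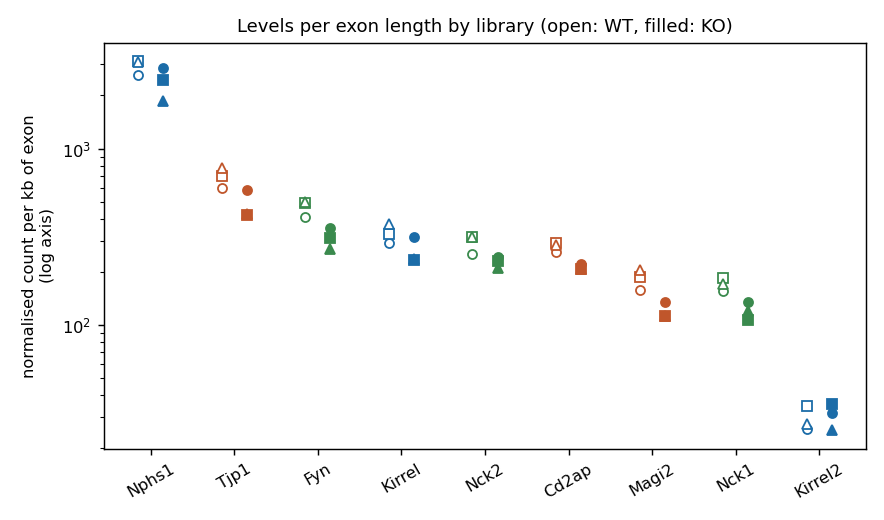
Normalised counts per kilobase of merged exons for each gene and library on a log axis, ordered by the WT mean, WT open and KO filled. Nphs1 is highest (2947 in WT) and Kirrel2 lowest (29.4 in WT), and the order in between holds neighbours that overlap.

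In each genotype 1 library stood at the same end for nearly all of the genes. WT-1 was the lowest WT library in 9 of 9 genes, which held for 38.3% of all genes tested, and KO-1 was the highest KO library in 8 of 9 (29.7% of all genes tested), the exception being Kirrel2. The others were divided: WT-3 was the highest WT library in 5 genes and WT-2 in 4, and KO-3 was the lowest KO library in 6 and KO-2 in 3. The mean log2 level of the 3 scaffolds was 11.67, 11.88 and 11.96 in WT-1 to WT-3 and 11.50, 11.23 and 11.23 in KO-1 to KO-3. That of the 3 signalling genes was 10.16, 10.44 and 10.41 in WT and 10.01, 9.80 and 9.75 in KO. Neither overlapped between groups, while the receptors, at 10.62, 10.90 and 10.85 in WT and 10.79, 10.63 and 10.34 in KO, did. The receptor mean minus the scaffold mean was between -1.11 and -0.98 in WT and between -0.89 and -0.60 in KO. With Kirrel2 left out, the same difference was between 0.91 and 0.93 in WT and between 0.96 and 1.20 in KO. In both forms each KO value lay above each WT value, which without a share over other genes is no result about the receptors. The mean of 3 receptors gives the weak Kirrel2 the same weight as Nphs1. Without Kirrel2 the margin was small, with 0.926 in WT-3 and 0.956 in KO-3. How often other genes show such a difference was not counted. Whether the roles differ in their change was not tested beyond these values, since the genes were chosen with results known.

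Marker lists of the cell types in glomeruli moved in the same libraries. Of 25 podocyte markers, 10 fell and 0 rose, with a median log2 fold change of -0.57; their summed level was 277233 to 338486 normalised counts in WT and 199525 to 272907 in KO. The transcription factor gene Wt1 fell by 0.92 on the log2 scale (limma adjusted p = 0.0286), while Podxl, which encodes the surface sialoprotein podocalyxin, was at -0.59 (limma adjusted p = 0.178). In the parietal epithelial list of 8, 1 gene fell (Cd24a, -0.97) and 4 rose (Krt8 among them, 1.59). Of 16 glomerular endothelial markers 13 fell (summed level 69725 to 85173 in WT, 46932 to 58022 in KO), and of 12 mesangial markers 8 fell (83054 to 100899 in WT, 62332 to 73032 in KO). Of their most abundant genes, endothelial Ehd3 fell (-0.67, limma adjusted p = 0.0336), while endothelial Eng was at -0.32 and mesangial Igfbp5 and Sfrp2 at -0.27 and -0.57 without passing. Of 20 proximal tubule markers 18 rose, at a median of 1.52, and their summed level was 128853 to 285616 in WT, highest in WT-1, and 328556 to 499373 in KO. Acsm2 rose by a log2 of 1.44 and Kap was at 1.02 without passing. In the list of 12 genes of distal tubule and collecting duct, 3 rose (Umod at 1.35 and Slc12a3 at 1.41 did not pass). None of 11 tested immune markers passed in limma, Cd74 standing at 1.14 (adjusted p = 0.226) and Lyz2 at 0.21 (adjusted p = 0.707). No marker of these lists was at 0 in all libraries. Several of the 9 genes, Tjp1, Fyn, Nck1 and Nck2 among them, are also expressed outside podocytes, and the part of these lists in the results was not tested.

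**Figure D4:**
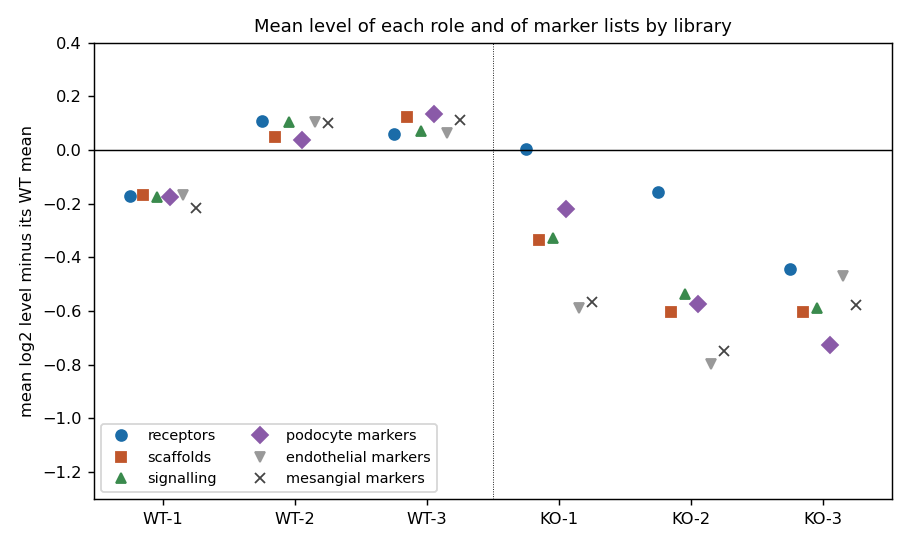
Mean log2 level of the 3 roles and of the podocyte, endothelial and mesangial marker lists in each library, each minus its own WT mean. Of the podocyte, endothelial and mesangial lists, the podocyte markers lie nearest to the scaffolds and signalling genes in KO-1 and KO-2, and the mesangial markers in KO-3. The podocyte, endothelial and mesangial lists are all lower in KO, by a mean log2 difference of -0.51, -0.62 and -0.63. The receptors lie above the podocyte markers in all 3 KO libraries.

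Set against the podocyte markers of the same library, the scaffolds and signalling genes overlapped between the groups, and all KO values of each receptor lay above its WT values. The mean log2 level of the podocyte markers was 12.49, 12.70 and 12.80 in WT-1 to WT-3 and 12.44, 12.09 and 11.94 in KO-1 to KO-3. Relative to it, Nphs1 stood at 1.59, 1.63 and 1.53 in WT and at 1.76, 1.90 and 1.65 in KO. Kirrel stood at -1.40, -1.45 and -1.35 in WT and at -1.25, -1.32 and -1.15 in KO. Kirrel2 shifted by 0.58. Non-overlap in this direction, seen for 3 of the 9 genes, was found for 48.9% of all genes tested on this scale, and non-overlap in the other direction for 0 of the 9 and 1.67% of all genes. The upward non-overlap is therefore common and is no result about the receptors. Magi2, by contrast, stood at -1.69, -1.65 and -1.61 in WT and at -1.86, -1.76 and -1.61 in KO, with overlap, and Tjp1, Fyn, Cd2ap, Nck1 and Nck2 overlapped as well. After scaling the libraries to equal podocyte markers, 0 of the 9 genes passed in limma, while 30.1% of all genes were called higher and 0.265% lower. Kirrel2 (higher, limma adjusted p = 0.0878) was the 1 gene of the 9 at an unadjusted p under 0.05. With this scaling all tested genes had a median log2 value of 0.50. The marker list is itself made of genes of which 10 fell, so a level relative to it is not a level per podocyte.

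**Figure D5:**
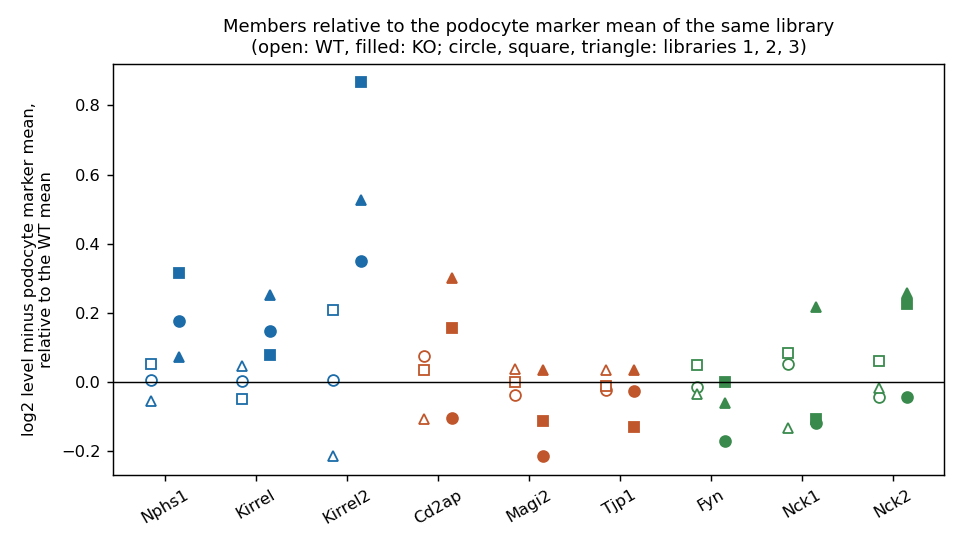
Log2 level of each gene minus the podocyte marker mean of the same library, set to 0 at its WT mean, WT open and KO filled. Filled points of Nphs1, Kirrel and Kirrel2 lie above all open points of the same gene, and those of the other 6 genes overlap with them. On this scale 48.9% of all genes tested had all KO values above all WT values.

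Among 29 other genes of the slit diaphragm and of nephrin signalling, 28 were tested; 3 fell, 4 rose and 21 did not pass, with a median log2 fold change of -0.18. These counts are near the shares of all tested genes called lower (8.58%) and higher (13.5%), so they are no result about the list. With WT-2, WT-3, KO-2 or KO-3 left out, 0 of them passed in limma in either direction, where 1, 0, 4 and 3 of all genes passed. With WT-1 left out 5 of them fell, and 1695 of all genes. None of them passed in limma without the variance trend, with a replicate block or with the proximal tubule markers in the model either. Of all genes, 1, 0 and 0 passed in those fits. Kirrel3, the remaining Neph gene, was too weak to be tested. The genes that fell were Sh3kbp1, which encodes the CD2AP relative CIN85, from 387 ± 54.0 to 253 ± 21.2 normalised counts, Plce1, a phospholipase C gene mutated in nephrotic syndrome, from 2786 ± 256 to 1766 ± 246, and Pik3r1, a regulatory subunit of phosphoinositide 3-kinase, from 2515 ± 244 to 1867 ± 46.6 (SD, n = 3; limma adjusted p = 0.0304, 0.0286 and 0.0304). Those that rose were the kinase gene Src, a relative of Fyn, at a log2 fold change of 0.62, Wasl, which encodes the N-WASP protein that Nck recruits to activate actin branching, at 0.32, the cadherin gene Cdh3 at 1.23 and the receptor phosphatase gene Ptprf at 1.48 (limma adjusted p = 0.0286, 0.0464, 0.0287 and 0.0309).

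Src had 262, 204 and 230 normalised counts in WT-1 to WT-3 and 336, 365 and 366 in KO-1 to KO-3. All its KO values lay above all WT values, as for 23.2% of all genes tested. Those of Fyn lay below, as for 21.9%. Wasl had 2354, 2323 and 2243 in WT and 2718, 2777 and 3135 in KO, while Nck1 fell in these libraries. Ptprf was at 794 in WT-1 against 329 and 344 in the other WT libraries, and at 985, 1583 and 1268 in KO. The proximal tubule markers were also highest in WT-1 among WT, as were Src and Wasl, and their part in these results was not tested. The channel gene Trpc6 was at -0.54 (limma adjusted p = 0.150), the actin crosslinker gene Actn4 at -0.09 (0.665) and the actin-associated Synpo at -0.66 (0.0583).

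Genes whose log2 level followed that of Nphs1 most closely over the 6 libraries, among 5508 named genes with a mean of at least 500, were Arhgap18, Tdrd5, Dcaf7, Hoxa10 and Ajuba, with Pearson r from 0.988 to 0.999 and Spearman rho from 0.943 to 1.0. These r values rest on 6 libraries that share scaling and genotype and are a description. Of these 5 genes 0 differed between KO and WT past the threshold (limma adjusted p from 0.177 to 0.334); Tdrd5 is also in the podocyte marker list. Among the slit diaphragm genes, Fyn had the highest r with Nphs1 at 0.900, and 289 of the 5508 genes had a higher one; Nck1 had the lowest at 0.727, Kirrel2 being too weak for this comparison.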

How the data were processed

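Glomerular RNA-seq libraries of 3 KO and 3 WT mice were grouped by sample title. The deposited values are normalised counts: a signal that the authors obtained from read numbers per gene and a scaling factor per library, as the values themselves show. The submitters' processing notes name bcl2fastq 2.19, cutadapt 1.16.5, HISAT2 2.1, featureCounts 1.6.4, DESeq2 2.11.40.6 (as numbered there) and mm10. For annotation and strand setting, the sources used here give nothing. Each library's values are whole multiples of 1 step (100% of values, tolerance 0.01), which gave the whole reads used for the count tests. In WT-2 that step lies so near a power of 10 that an automatic check could not tell it from rounding, so the count tests rest on accepting it. Symbols came from RefSeq and exon lengths from GENCODE M21.

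Differences were tested by limma (version 3.58.1, R 4.3.3), with variance trend, on log2(normalised count + 1) for genes with a mean of at least 10. Genotype was the only term and p-values were adjusted by Benjamini-Hochberg; low genes have understated fold changes. Intervals are at 95%. Alternatives were edgeR (version 4.0.16) and DESeq2 (version 1.42.0) on whole reads, which called 2841 and 3810 genes, other scalings, pseudocounts and filters, a replicate block, a marker covariate and leaving out libraries. The scripts were tested on simulated data. The 9 genes and all lists were chosen with earlier results of these data known. Other genes were named by rule: called genes of the slit diaphragm list with Trpc6, Actn4 and Synpo (1 further gene of that rule is not reported here), the 2 most abundant of each marker list, Wt1, Podxl, and the 5 most like Nphs1.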

Additional observations from a re-analysis of the deposited data

How the results depend on the processing

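All 5 genes called lower had a negative log2 fold change in every alternative except Cd2ap under podocyte marker scaling (0.12), but the sizes and calls were less stable. With the mean of the proximal tubule markers in the model, Cd2ap was at -0.19, Magi2 at -0.14, Tjp1 at -0.017, Fyn at -0.16 and Nck1 at -0.19. That mean was higher in each KO library than in any WT library, so this model can hardly tell it from genotype. With podocyte marker scaling Magi2 was at -0.098, Tjp1 at -0.041, Fyn at -0.077 and Nck1 at -0.0028. The count of 5 stayed between 4 and 6 with a pseudocount of 0.5 or 5, with upper quartile or TMM scaling, with no filter, a mean of at least 50, a robust limma prior, edgeR and DESeq2. In limma it was 0 without the variance trend (6 of 9 at an unadjusted p under 0.05), 0 with the tubule markers in the model (0 of 9), 0 with podocyte marker scaling (1 of 9, higher) and 0 with a replicate block (5 of 9). Leaving out single libraries gave 0 to 6; edgeR, run in this way after seeing the data, gave 0 for WT-2, WT-3, KO-2 and KO-3, 4 for KO-1 and 6 for WT-1. The cause was not tested. The sources used here do not say whether the replicate numbers pair the mice. Deviations of same-numbered libraries from their genotype means correlated at -0.23, -0.19 and -0.013. These values cannot decide it, since the deviations of 3 libraries are tied to each other within a genotype. In the model with tubule markers, Nphs1 was at 0.13, Kirrel at 0.12 and Nck2 at 0.050, and with podocyte marker scaling at 0.19, 0.16 and 0.15, none past the threshold. Kirrel2 without single libraries ran from -0.035 to 0.21.

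Of all genes, limma called 1196 lower and 1889 higher, and with podocyte marker scaling 37 and 4204. It called 1 gene in all without the trend, 0 with the replicate block and 0 with tubule markers in the model. With a library left out it called 1 (WT-2), 0 (WT-3), 4 (KO-2), 3 (KO-3), 2062 (KO-1) and 4294 (WT-1). Parva stayed lower in each alternative, at an adjusted p in limma of 0.0537 without the trend, 0.0868 with the replicate block and 0.531 with tubule markers in the model. Kirrel2, with 88 to 142 reads per library, had the lowest depth of the 9.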
